A study of Saccharomyces cerevisiae with 22 samples.

Results

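The yeast cell wall is a mesh of glucan and chitin with an outer coat of mannoproteins, secreted proteins that carry long mannose chains. Many of them keep a glycosylphosphatidylinositol (GPI) anchor signal at their C-terminus, through which they are passed from the plasma membrane to the wall glucan. Which mannoproteins a cell makes changes with growth phase, temperature, oxygen and stress. The TIR and DAN genes in particular are known as genes of cold or anaerobic growth, while *SED1* and *SPI1* are known from stationary phase and stress. The expression of 9 genes of this kind was followed across mutants of the kinase Ctk1p and of factors that act with RNA polymerase II in transcription, termination and RNA decay. The genes, found by symbol in the probe annotation, were *HPF1* (YOL155C), *SPI1* (YER150W), *SED1* (YDR077W), *CWP1* (YKL096W), *TIR1* (YER011W), *TIR2* (YOR010C), *TIR3* (YIL011W), *TIR4* (YOR009W) and *DAN1* (YJR150C), out of 6373 genes and other transcripts measured.

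RNA of *Saccharomyces cerevisiae* was hybridized to 22 dual-channel arrays of long oligonucleotides, each with a mutant in 1 dye and RNA of a wild type (wt) reference in the other. The arrays make 12 mutant profiles, of which 10 (18 arrays) came from synthetic complete (SC) medium and 2 (4 arrays) from the rich medium YPD, per the study's methods. The deletions grown in SC were *ctk1*Δ (ctk1-del in the labels), which lacks the kinase of serine 2 of the polymerase's C-terminal domain (CTD), *set2*Δ (set2-del), which lacks a histone H3 methyltransferase that binds this CTD, *eaf3*Δ (eaf3-del) and *rco1*Δ (rco1-del), which lack subunits of the histone deacetylase complex Rpd3S, *rtt103*Δ (rtt103-del), which lacks a CTD binding factor of termination, and *rrp6*Δ (rrp6-del) and *lrp1*Δ (lrp1-del), which lack an exonuclease of the nuclear exosome and its cofactor. The temperature-sensitive alleles grown in SC were *pcf11-2* (pcf11-mut-ts-2) and *pcf11-ts2* (pcf11-mut-ts-ts2), of a subunit of the cleavage and termination factor CF IA, and *sen1-1* (sen1-mut-ts-1), of the termination helicase Sen1p. These genes are essential, and according to the methods the strains were grown at the same temperature as the others, at which they are viable. In YPD, *ctk1*Δ (ctk1-del-ypd) was profiled beside *rpb1-S2A* (rpb1-mut-S2A-matA-ypd), in which serine 2 of the CTD repeats of the largest polymerase subunit is changed to alanine.

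Both *pcf11* alleles had 1 array from 1 culture and every other mutant 2 arrays, of which array a carried the mutant in Cy3 and array b in Cy5. The methods name separately inoculated cultures for the 2 arrays of a mutant. The labels give the background BY4742 for every sample, reference included. In *pcf11-2*, *pcf11-ts2*, *sen1-1* and *rpb1-S2A*, however, all 7 of 7 measured genes specific to a cells were above the reference and all 4 of 4 genes specific to alpha cells below it, so these 4 mutants differed from the reference in the mating type genes as well as in the named allele. *MET17*, a methionine synthesis gene deleted in BY4741, was at −4.90 to −3.99 in them. *LYS2*, a lysine synthesis gene deleted in BY4742, was at 2.71 to 3.02 in these 4 mutants and also at 3.13 and 2.06 in *ctk1*Δ from SC and YPD, so *ctk1*Δ differed from the reference in this strain marker too. The part of the strain markers in the values of the mannoprotein genes was not tested. In the 8 deletion profiles the deleted gene had a log2 ratio of −4.06 to −2.46. Over all arrays the median signal of the gene spots was 272 to 1541 in the mutant channel, where local background was 40 to 64 (medians of the arrays), and per channel 93.6% to 99.6% of the gene spots were above background. The labels name a high-throughput RNA extraction for *ctk1*Δ in SC, *eaf3*Δ, *rco1*Δ, both *pcf11* alleles, *sen1-1* and array b of *rpb1-S2A*, and a standard one for the rest. For the reference RNA they name the high-throughput protocol on the arrays of both *pcf11* alleles, *sen1-1*, *rpb1-S2A* and *ctk1*Δ in YPD and the standard one elsewhere, so the reference RNA may not have been the same on all arrays.

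Values are log2 ratios of mutant over reference, fitted over all arrays with a dye term, with their standard error (SE). A gene is said to be called higher or lower where the Benjamini-Hochberg adjusted p of the limma fit was under 0.05 and the fold change over 1.7. The 9 genes were selected on these ratios of all 12 mutants, since *HPF1*, *SPI1* and *TIR4* were picked for rising in several of them. Their ratios to the reference, and the calls made on these ratios, are therefore given as a description and not as the outcome of a test. The reference counts as 1 control sample, whose own spread is not in the SE, and the p-values reflect how far these arrays scatter. RNA came from whole cultures, in which fewer cells that express a gene and less of its RNA per cell cannot be told apart. Of 108 pairs of a mannoprotein gene and a mutant, 24 were called higher, where 3.39% of all pairs of a feature and a mutant were, and 1 was called lower, where 1.47% of all pairs were (5.16% of all features in that mutant, *rpb1-S2A*). The calls fell on 5 genes. *HPF1*, *SPI1*, *SED1* and *TIR4* were called higher in at least 1 mutant (13.8% of all features were) and *CWP1* was called lower in 1 (8.58% of all features). *TIR1*, *TIR2*, *TIR3* and *DAN1* were called in none. Among the mutants, *ctk1*Δ in SC had 4 of the 9 genes called higher (7.28% of all features), *sen1-1* 3 (5.21%), *rrp6*Δ 3 (1.63%), *lrp1*Δ 3 (0.973%) and *ctk1*Δ in YPD 3 (6.79%). The *pcf11-2* mutant had 2 (5.54%), *rpb1-S2A* 2 (7.23%), *pcf11-ts2* 1 (3.17%), *set2*Δ 1 (1.35%), *rco1*Δ 1 (0.769%), *eaf3*Δ 1 (0.549%) and *rtt103*Δ 0 (0.126%).

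**Figure D1:**
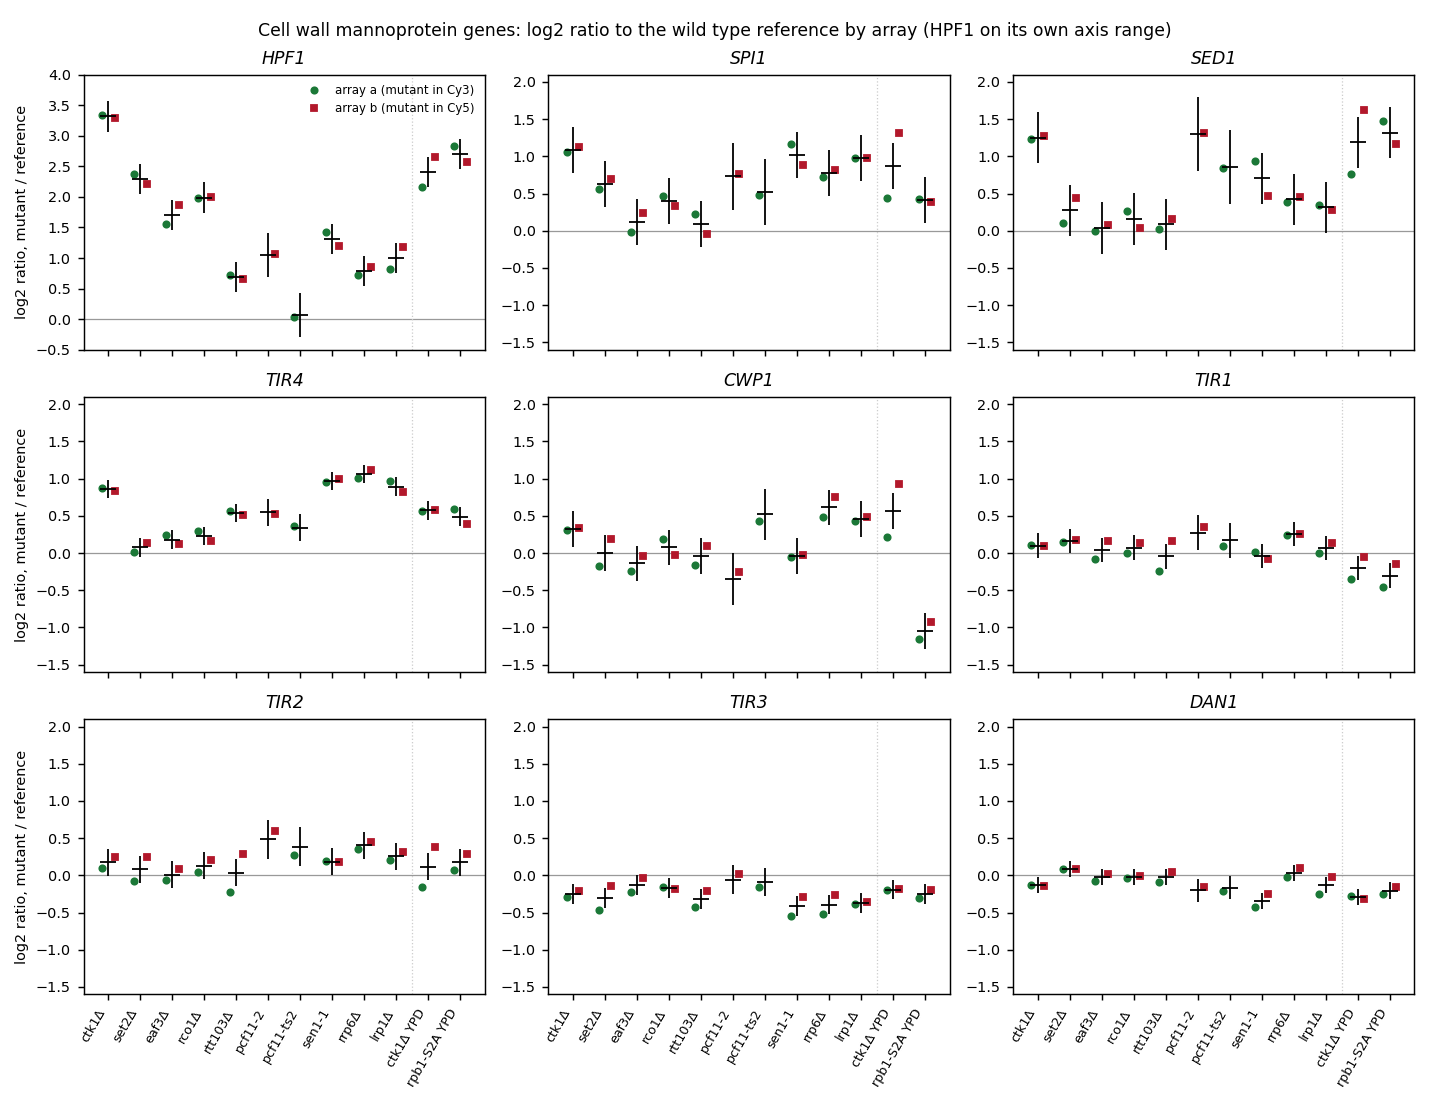
Log2 ratio of mutant over wild type reference (y axis) for the 9 mannoprotein genes in the 12 mutants (x axis, YPD to the right of the dotted line). Points are single arrays, a in Cy3 and b in Cy5, and black bars are the fitted value with its 95% interval; *HPF1*, on an axis of its own, lies above 0 on all 22 arrays, and *TIR3* below 0 on 21.

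Each gene is represented by 1 probe, spotted in 2 places on each array. All 88 readings of each probe (2 spots, 2 channels, 22 arrays) exceeded the local background and none was saturated, and the median gap between the 2 spots was 0.02 to 0.06 on the log2 scale. The probes of *TIR3*, *TIR4* and *DAN1* were nevertheless dim. The reference signal over background of the *TIR4* probe was 22.2 to 248 scanner units, that of *TIR3* 46.2 to 455 and that of *DAN1* 35.0 to 231. An offset of 50 was added to all signals before the ratios were taken, which draws the ratios of such dim probes towards 0. With an offset of 10, the log2 ratio of *TIR4* in *ctk1*Δ was 1.21 in place of 0.86.

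**Figure D2:**
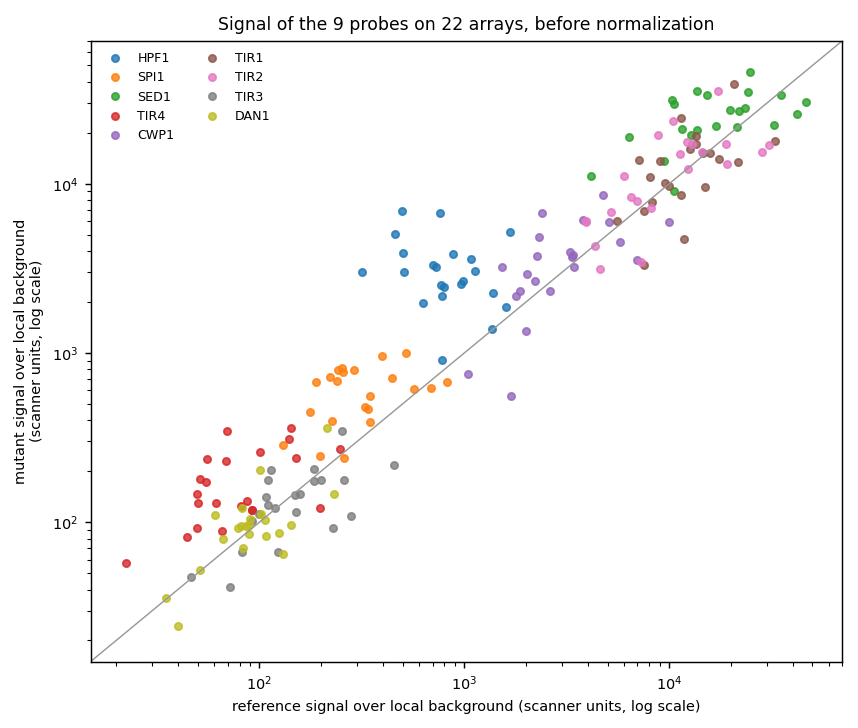
Mutant signal (y axis) against reference signal (x axis), both over local background in scanner units on log scales, for each probe on each of 22 arrays before normalization. Points above the diagonal had more mutant than reference signal, as most *HPF1* and *SPI1* points do; the *TIR3*, *TIR4* and *DAN1* probes lie at the dim end, and levels of different probes are not comparable.

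*HPF1* encodes a heavily mannosylated wall protein, known for reducing protein haze in wine. It was the gene of the 9 with the highest ratios and was called higher in 10 of 12 mutants. Only 4 of all features (0.0628%) were called higher in 10 or more. In *ctk1*Δ grown in SC its log2 ratio was 3.33 on array a and 3.30 on array b (fitted 3.32, SE 0.11, 9.96-fold). In *rpb1-S2A* the arrays gave 2.83 and 2.57 (fitted 2.70). In *ctk1*Δ grown in YPD they gave 2.16 and 2.65 (fitted 2.40). These 3 profiles held the highest *HPF1* ratios of the series, and all of their 6 arrays lay above 2.

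The *HPF1* ratios came next in the deletions of Set2p and of the Rpd3S subunits. In *set2*Δ the 2 arrays gave 2.38 and 2.21 (fitted 2.29, 4.90-fold), in *rco1*Δ 1.98 and 1.99 (fitted 1.99), and in *eaf3*Δ 1.55 and 1.86 (fitted 1.71). Among all 6373 features *HPF1* held rank 2 from the highest in each of these 3 mutants, and rank 3 in *ctk1*Δ, whereas it held rank 17 in *rpb1-S2A* and 30 in *ctk1*Δ in YPD. Only 1 of the 9 genes, *HPF1*, was called in any of these deletions.

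Lower ratios were measured in the termination and exosome mutants. The arrays of *sen1-1* gave 1.43 and 1.19 (fitted 1.31), those of *lrp1*Δ 0.82 and 1.18 (fitted 1.00) and those of *rrp6*Δ 0.72 and 0.85 (fitted 0.78). The single array of *pcf11-2* gave 1.07, and the fit with its dye term 1.05 (SE 0.17). The other *pcf11* allele, *pcf11-ts2*, had 0.03 on its single array and 0.06 in the fit (SE 0.17), and was 1 of the 2 profiles without a call. The other was *rtt103*Δ, with 0.72 and 0.66. Its fitted value of 0.69 (1.61-fold) lay just outside the fold minimum and that of *rrp6*Δ (1.72-fold) just inside. In the order of the 12 fitted values, 3 of 11 neighbouring values differed by more than their 95% interval: *ctk1*Δ in SC from *rpb1-S2A*, *eaf3*Δ from *sen1-1*, and *rtt103*Δ from *pcf11-ts2*. Within SC, *HPF1* ran from 0.06 to 3.32 in the 6 profiles of the high-throughput extraction and from 0.69 to 2.29 in the 4 profiles of the standard one. Each mutant in SC had 1 protocol, and the part of the extraction in these values was not tested.

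*SPI1* encodes a small GPI-anchored wall protein that is induced in stationary phase and by weak acids. Its fitted ratio was above 0 in all 12 mutants, and 4.55% of all features were above 0 in all 12. It was called higher in 5 mutants. The arrays gave 1.06 and 1.12 in *ctk1*Δ (fitted 1.09, SE 0.14), 1.16 and 0.88 in *sen1-1* (fitted 1.02), and 0.98 and 0.97 in *lrp1*Δ (fitted 0.98). In *rrp6*Δ they gave 0.72 and 0.82 (fitted 0.77, 1.71-fold, just inside the fold minimum). The 2 arrays of *ctk1*Δ in YPD were far apart, at 0.44 and 1.31 (fitted 0.88), and without array b the gene was not called there (0.43). The ratio in *pcf11-2* (0.73, 1.66-fold) lay just outside the fold minimum. The lowest ratios were those of *rtt103*Δ (0.23 and −0.05) and *eaf3*Δ (−0.02 and 0.25), whose arrays lay on both sides of 0. No neighbouring values in the order of the 12 mutants differed by more than their interval.

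*SED1* encodes an abundant GPI-anchored glycoprotein of the wall that is needed for stress resistance in stationary phase. It was called higher in 5 mutants, and its fitted ratio was above 0 in all 12. The highest ratio was that of *rpb1-S2A*, with 1.47 and 1.16 on its arrays (fitted 1.32, SE 0.16). The single array of *pcf11-2* gave 1.32 (fitted 1.30, SE 0.23) and that of *pcf11-ts2* 0.84 (fitted 0.86, SE 0.23). In *ctk1*Δ the arrays gave 1.23 and 1.27 in SC (fitted 1.25) and 0.76 and 1.62 in YPD (fitted 1.19), where the call was lost without array b (0.74). Both *pcf11* alleles were thus among the called mutants, whereas *sen1-1*, with 0.94 and 0.47 (fitted 0.70, 1.63-fold), lay below the fold minimum, though not without its array b (0.99). In *set2*Δ, *rco1*Δ, *eaf3*Δ and *rtt103*Δ the fitted ratios were 0.04 to 0.27, and in *rrp6*Δ and *lrp1*Δ 0.42 and 0.31. The calls in both *pcf11* alleles were lost with arrays centred on their median in place of loess (0.72 and 0.64).

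*CWP1* encodes a mannoprotein that is built into the wall at the birth scar. Its fitted ratios lay on both sides of 0, above in 7 mutants and below in 5. In *rpb1-S2A* its arrays gave −1.16 and −0.93 (fitted −1.05, SE 0.11, 2.06-fold lower), the only call of a lower level among the 9 genes. In *ctk1*Δ grown in the same medium they gave 0.21 and 0.92 (fitted 0.57), and without array a, at 0.86, the gene was called higher there. The highest ratio was that of *rrp6*Δ, with 0.48 and 0.75 (fitted 0.61, below the fold minimum). The *pcf11* alleles lay on opposite sides of 0, at −0.25 and 0.43 on their single arrays. In the other 3 mutants with the genes of a cells, *CWP1* had fitted values of −0.35, 0.52 and −0.04.

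The TIR genes encode serine- and alanine-rich mannoproteins of 1 family, induced by cold shock or in cells grown without oxygen. *TIR4* was called higher in 4 mutants and its ratio was above 0 on all 22 arrays. Of all features, 4.75% were called higher in 4 or more mutants, as *HPF1*, *SPI1*, *SED1* and *TIR4* were. In *rrp6*Δ the arrays gave 1.01 and 1.12 (fitted 1.07, SE 0.06), in *sen1-1* 0.95 and 0.99 (fitted 0.97), in *lrp1*Δ 0.97 and 0.82 (fitted 0.89) and in *ctk1*Δ 0.88 and 0.84 (fitted 0.86). The lowest ratios were those of *set2*Δ (0.02 and 0.13), *eaf3*Δ (0.24 and 0.12) and *rco1*Δ (0.29 and 0.16), the mutants in which only *HPF1* was called. The remaining mutants, *rtt103*Δ among them, lay between, at fitted values of 0.34 to 0.57. Of the 11 neighbouring values in this order, only *ctk1*Δ in SC and in YPD differed by more than their interval. With an offset of 10, *TIR4* was called in 6 mutants, with *ctk1*Δ in YPD (0.84) and *rpb1-S2A* (0.83) added. Within SC the lowest and the highest *TIR4* value both came from the standard extraction (0.08 and 1.07), and the high-throughput one held 0.18 to 0.97. The part of the extraction in these values was not tested.

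The other TIR genes moved less. *TIR1* had fitted ratios of −0.30 (*rpb1-S2A*) to 0.27 (*pcf11-2*), and *TIR2* of 0.01 (*eaf3*Δ) to 0.49 (*pcf11-2*). These extremes depend on the processing. Over other treatments of the arrays, *TIR1* ran from −0.18 to 0.35 in *pcf11-2* and from −0.63 to −0.20 in *rpb1-S2A*. *TIR2* ran from 0.10 to 0.60 in *pcf11-2*. *TIR3* was at −0.42 (*sen1-1*) to −0.06 (*pcf11-2*). It was below 0 in all 12 mutants and on 21 of 22 arrays, where 4.55% of all features were below 0 in all 12, but in *pcf11-2* its single array gave 0.01, and the fitted sign there turned without the dye term (0.01) and with arrays centred on their median (0.04). *DAN1*, a GPI-anchored wall protein made in cells without oxygen, had −0.34 (*sen1-1*) to 0.09 (*set2*Δ). None of these ratios reached the fold minimum, and the ranges of *TIR1* (0.58), *TIR2* (0.48), *TIR3* (0.36) and *DAN1* (0.43) over the 12 mutants were below the median range of all features (0.61). The range of *HPF1* was 3.25.

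The 9 genes did not share 1 order of mutants. As a description over 12 profiles, which share the reference, Pearson's r was above 0.5 for 2 of 36 pairs of the genes, *SPI1* with *TIR4* (r = 0.67, Spearman's rho 0.73) and *TIR1* with *TIR2* (0.56 and 0.56), and below 0 for 16. *HPF1* with *SPI1* had r = 0.22 and with *TIR4* −0.12. *TIR3* with *TIR4* had −0.61 and *SED1* with *DAN1* −0.69. The genes *TIR4* and *TIR2* lie next to each other and are transcribed towards each other, yet only *TIR4* was called, and r between them was 0.41.

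**Figure D3:**
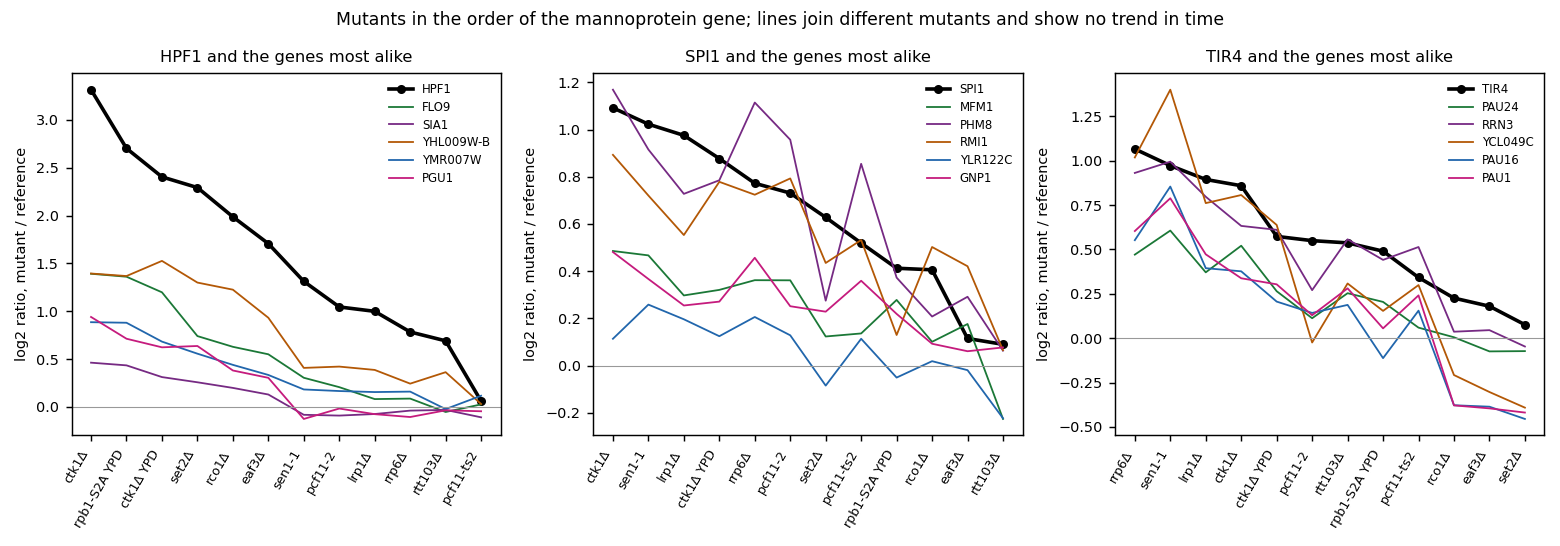
Log2 ratio of mutant over reference (y axis) of *HPF1*, *SPI1* and *TIR4* (black) and of the 5 named genes most alike each (colours), with the 12 mutants on the x axis ordered by the black gene. *HPF1* and *FLO9* run in nearly the same order from *ctk1*Δ to *pcf11-ts2*, and the PAU genes follow *TIR4* with their lowest values in *eaf3*Δ, *rco1*Δ and *set2*Δ.

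Among all other named genes, the one whose ratios over the 12 mutants were most like those of *HPF1* was *FLO9*, a flocculin, itself a GPI-anchored mannoprotein of the wall (r = 0.95, rho 0.99). It was at 1.39 in *ctk1*Δ, 0.74 in *set2*Δ and 0.31 in *sen1-1*, and was called higher in 3 mutants. *SIA1* (0.95), YHL009W-B, an open reading frame of a Ty transposon (0.94), YMR007W (0.94) and *PGU1*, a secreted pectinase (0.94), followed. Without *ctk1*Δ and *pcf11-ts2*, the mutants farthest from the median of *HPF1*, these r were 0.95 to 0.97. For *TIR4*, 3 of the 5 genes most alike were seripauperins, which belong with the TIR genes to a family of anaerobic wall proteins: *PAU24* (r = 0.95, rho 0.94), *PAU16* (0.93) and *PAU1* (0.92). *PAU24* was at 0.61 in *sen1-1* and 0.52 in *ctk1*Δ, and was called in 0 mutants, whereas *PAU16* and *PAU1* were called in 1 each. The seripauperin genes are so alike in sequence that their probes may read several of them. *RRN3*, an initiation factor of RNA polymerase I (0.93), and YCL049C (0.93) completed the 5, and all 5 had r of 0.89 to 0.96 without *rrp6*Δ and *set2*Δ. The genes most like *SPI1* were less alike, from *MFM1*, a mitochondrial magnesium transporter (r = 0.82), through *PHM8* (0.81), *RMI1* (0.80) and YLR122C (0.80) to *GNP1*, an amino acid permease (0.79). Their r were 0.62 to 0.80 without *rtt103*Δ and *eaf3*Δ. These values were picked as the highest of all named genes and carry no test.

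To ask in which mutants the genes differed, the mutants were set against each other within the same fit. The reference cancels there only as far as its RNA was the same on the arrays compared, and the arrays are those on which the 9 genes were chosen. In 6 comparisons with 54 differences, 4 were called. First, *ctk1*Δ was set against the mean of *set2*Δ, *eaf3*Δ and *rco1*Δ. *HPF1* was higher in *ctk1*Δ by 1.32 on the log2 scale (95% interval 1.03 to 1.61, 2.50-fold, limma adjusted p = 6.11e-06), and *SED1* by 1.09 (0.70 to 1.49, 2.14-fold, adjusted p = 0.000364). Thus 2 of 9 genes were called higher (4.77% of all features) and 0 lower (1.91%). *TIR4* (0.70, interval 0.56 to 0.84, adjusted p = 3.65e-06), *SPI1* (0.71, adjusted p = 0.00356) and *CWP1* (0.34, adjusted p = 0.0409) passed the p threshold at folds of 1.62, 1.63 and 1.27, below the fold minimum. With an offset of 10, *TIR4* (1.00) and *SPI1* (0.80) were called as well, and with the authors' processed ratios *TIR4* was (0.81, 1.75-fold). The labels name the standard extraction for *set2*Δ and the high-throughput one for the others. Without *set2*Δ in the comparison, a step added after seeing the data, *HPF1* (1.47, adjusted p = 5.05e-06) and *SED1* (1.15, adjusted p = 0.000401) were as far apart. *SPI1* was then called as well. *LYS2* was at 3.13 in *ctk1*Δ and at 0.03 in *rco1*Δ, 0.06 in *eaf3*Δ and −0.05 in *set2*Δ, so a strain marker differed along with the deletion, and its part in these differences was not tested.

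In *ctk1*Δ, *HPF1* was lower in YPD than in SC by 0.91 (difference −0.91, interval −1.26 to −0.56, 1.88-fold, adjusted p = 0.00237). It was 1 of 9 genes called lower (1.22% of all features) with 0 called higher (1.52%). Without array a of the YPD culture the difference was −0.67 and fell below the fold minimum (1.59-fold, adjusted p = 0.0231), and over all alternatives it was −1.16 to −0.67. *TIR4* differed by −0.29 (adjusted p = 0.0297, 1.22-fold, not called). *SED1* differed by −0.06 with an interval of −0.55 to 0.43, and *SPI1* by −0.21 (−0.65 to 0.22). The culture medium, the RNA extraction of the mutant and that labelled for the reference all differed between these profiles and cannot be told apart, and no wild type grown in YPD was used here.

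In YPD, *rpb1-S2A* was set against *ctk1*Δ, the mutants that concern serine 2 of the CTD through its residue and through its kinase. *CWP1* was lower in *rpb1-S2A* (difference −1.61, interval −1.95 to −1.28, 3.06-fold, limma adjusted p = 2.12e-05). It was 1 of 9 genes called lower (1.43% of all features) with 0 called higher (0.549%). Leaving out 1 array at a time gave −1.90 to −1.32, and with array a of *rpb1-S2A* alone, extracted by the same protocol as *ctk1*Δ in YPD, the difference was −1.63. The mating type genes differed between these strains as well, and the allele and the strain cannot be told apart. For *HPF1* the difference was 0.30 (interval −0.05 to 0.65, adjusted p = 0.283) and for *SED1* 0.13 (−0.36 to 0.62). *SPI1* differed by −0.46 (−0.90 to −0.03, adjusted p = 0.166), and without array a of *ctk1*Δ in YPD it was called lower in *rpb1-S2A* (−0.91).

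The remaining 3 comparisons gave no calls among the 9 genes. In *sen1-1* against the mean of both *pcf11* alleles, all 3 with the mating type genes of a cells and the same extraction, limma called 0 of 9 genes (3.44% of all features were called higher and 1.8% lower), while 5 had an unadjusted p under 0.05 and 3 an adjusted p under 0.05. *HPF1* was higher in *sen1-1* by 0.76 (interval 0.41 to 1.11, adjusted p = 0.0031), a 1.69-fold difference that lay just below the fold minimum, and *TIR4* was higher by 0.53 (0.35 to 0.70, adjusted p = 0.00029). *TIR3* differed by −0.34 (adjusted p = 0.00857). *HPF1* was called here without array b of *sen1-1* (0.92) and with an offset of 10 (0.78). Since each *pcf11* allele had 1 array, its spread was taken from the other mutants.

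In *set2*Δ against the mean of *eaf3*Δ and *rco1*Δ, limma called 0 of 9 genes (0.188% of all features higher and 0.737% lower), with 1 unadjusted p under 0.05. *HPF1* differed by 0.45 (interval 0.14 to 0.75, adjusted p = 0.113). This comparison coincides with the extraction protocol. In *lrp1*Δ against *rrp6*Δ it called 0 of 9 (0.0628% higher and 0.0628% lower), with 1 unadjusted p under 0.05, and the differences of the 9 genes lay between −0.18 and 0.22, that of *TIR4* at −0.17 (interval −0.35 to 0.00) and that of *SPI1* at 0.20 (−0.23 to 0.64). Fits without empirical Bayes variances called 0 of 9 genes in these 3 comparisons too.

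**Figure D4:**
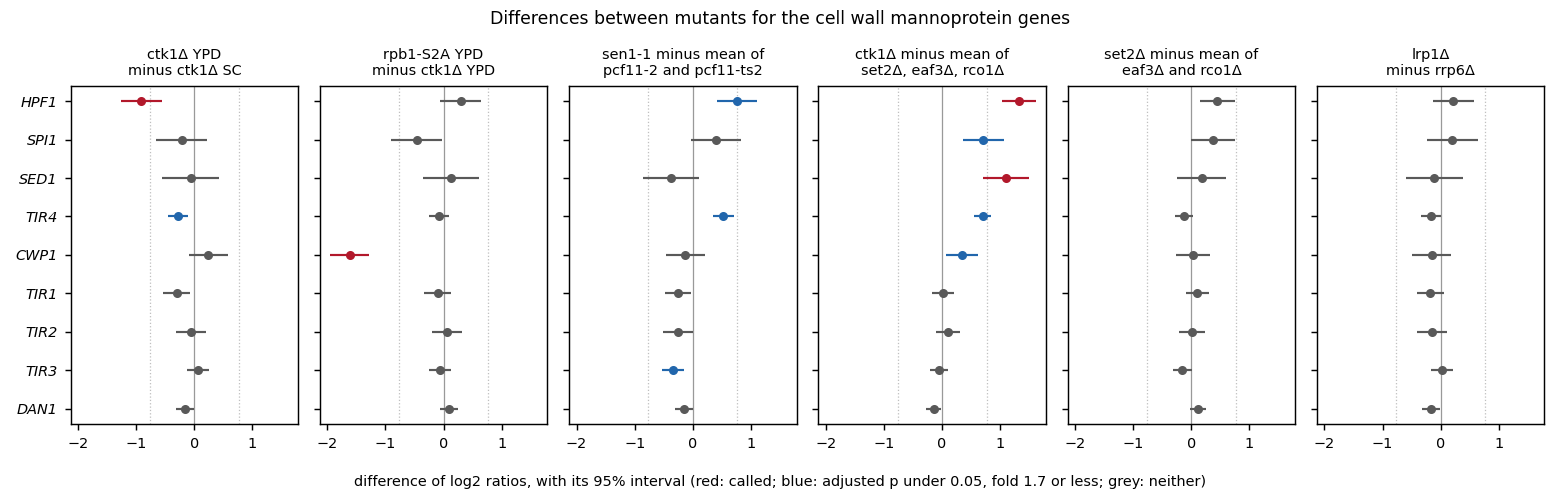
Difference of log2 ratios between mutants (x axis) with its 95% interval for the 9 mannoprotein genes (y axis) in 6 comparisons. Red points were called, blue points had an adjusted p under 0.05 at a fold of 1.7 or less, and dotted lines mark the fold minimum; the 4 red points are *HPF1* (−0.91 and 1.32), *SED1* (1.09) and *CWP1* (−1.61).

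Other genes of the wall and of mannosylation were read from lists. Of 27 further GPI-anchored wall proteins, 23 were measured by name, and 10 of these were called in at least 1 mutant. Of their 276 pairs with a mutant, 17 were called higher (6.16%, against 3.39% of all pairs) and 12 lower (4.35%, against 1.47%), with a median log2 ratio of 0.07, where the medians of all features were −0.01 to 0.01 in the 12 mutants. *FIT2* and *FIT3*, mannoproteins that hold siderophore iron in the wall, were called in 6 and 5 mutants. Their relative *FIT1*, the phospholipase gene *PLB2*, the aspartic protease gene *YPS1* and the wall glycoprotein gene *CCW14* were called in 3 each, *YPS1* and *CCW14* higher in all 3. *FIT1*, *FIT2* and *FIT3* held 3 each of the 17 calls of a higher level. The share of the list called higher thus rests largely on these 3 genes and does not describe GPI-anchored wall proteins in general. *FIT2* was at 3.19 in *ctk1*Δ and 2.595 in *rpb1-S2A*, both in YPD, and at 1.72 in *pcf11-2*, but at −1.05 in *ctk1*Δ in SC, −1.69 in *rrp6*Δ and −1.29 in *lrp1*Δ. *FIT3* was at 2.80, 2.82 and 2.33 in the same 3 mutants and at −1.10 in *rrp6*Δ and −0.99 in *lrp1*Δ, and *FIT1* was at 1.92, 1.496 and 0.89. *PLB2* was called lower in *pcf11-2* (−0.997), *ctk1*Δ in YPD (−0.89) and *rpb1-S2A* (−1.18). For *FIT2*, *ctk1*Δ was thus on opposite sides of the reference in the 2 media, whereas *HPF1* was above it in both. All 3 FIT genes were high in both YPD profiles, *rpb1-S2A* included. The extraction labelled for mutant and reference RNA of *ctk1*Δ differed along with the medium, and the part of each was not tested.

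Of the PIR proteins, which are bound to the wall without a GPI anchor, 4 of 5 were measured, with 2 of 48 pairs called higher (4.17%, against 3.39% of all pairs) and 0 lower. These were *PIR3* in *ctk1*Δ (1.12) and *HSP150* in *pcf11-2* (0.84). Of the protein O-mannosyltransferases, which add the first mannose in the endoplasmic reticulum, 6 of 7 were measured, with 0 of 72 pairs called higher and 4 lower (5.56%, against 1.47% of all pairs), all of them of *PMT6*. It was at −0.83 in *ctk1*Δ, −0.79 in *rtt103*Δ, −0.89 in *ctk1*Δ in YPD and −1.25 in *rpb1-S2A*. Of 17 genes of mannan synthesis, which extend the chains in the Golgi, 0 of 204 pairs were called higher and 4 lower (1.96%, near the 1.47% of all pairs). *KTR3*, a mannosyltransferase, was at −1.46 in *ctk1*Δ, −1.43 in *ctk1*Δ in YPD and −2.01 in *rpb1-S2A*, and *MNN1*, which adds the terminal mannose, at −0.81 in *rpb1-S2A*.

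Genes that, like the TIR and DAN genes, are known to be raised in cells without oxygen or heme were also read. Of 13 such genes outside the 9, 3 of 156 pairs were called higher (1.92%, against 3.39% of all pairs) and 7 lower (4.49%, against 1.47%), with a median of −0.14. *AAC3*, an ADP/ATP carrier made without oxygen, was called lower in 5 mutants, at −0.97 in *rrp6*Δ, −0.96 in both *pcf11* alleles, −0.86 in *ctk1*Δ and −0.78 in *rpb1-S2A*. *CYC7*, the hypoxic form of cytochrome c, was called higher in *ctk1*Δ in SC (1.03) and in YPD (0.98) and in *pcf11-2* (0.95). *OLE1*, the fatty acid desaturase, was called lower in *pcf11-2* (−1.01), and *PDR11*, a sterol importer, in *rrp6*Δ (−1.25). In the mutants in which *TIR4* was called higher, the medians of this list were −0.34 (*rrp6*Δ), −0.28 (*sen1-1*), −0.22 (*ctk1*Δ in SC) and −0.12 (*lrp1*Δ). The median was also below 0 in the other mutants, such as *pcf11-2* (−0.27), except in *set2*Δ (0.02). Of 14 regulators of the 9 genes or of the wall, 1 of 168 pairs was called (0.595%, below the 3.39% of all pairs called higher), that of *SLT2*, the kinase of the cell wall integrity pathway, higher in *sen1-1* (0.88).

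**Figure D5:**
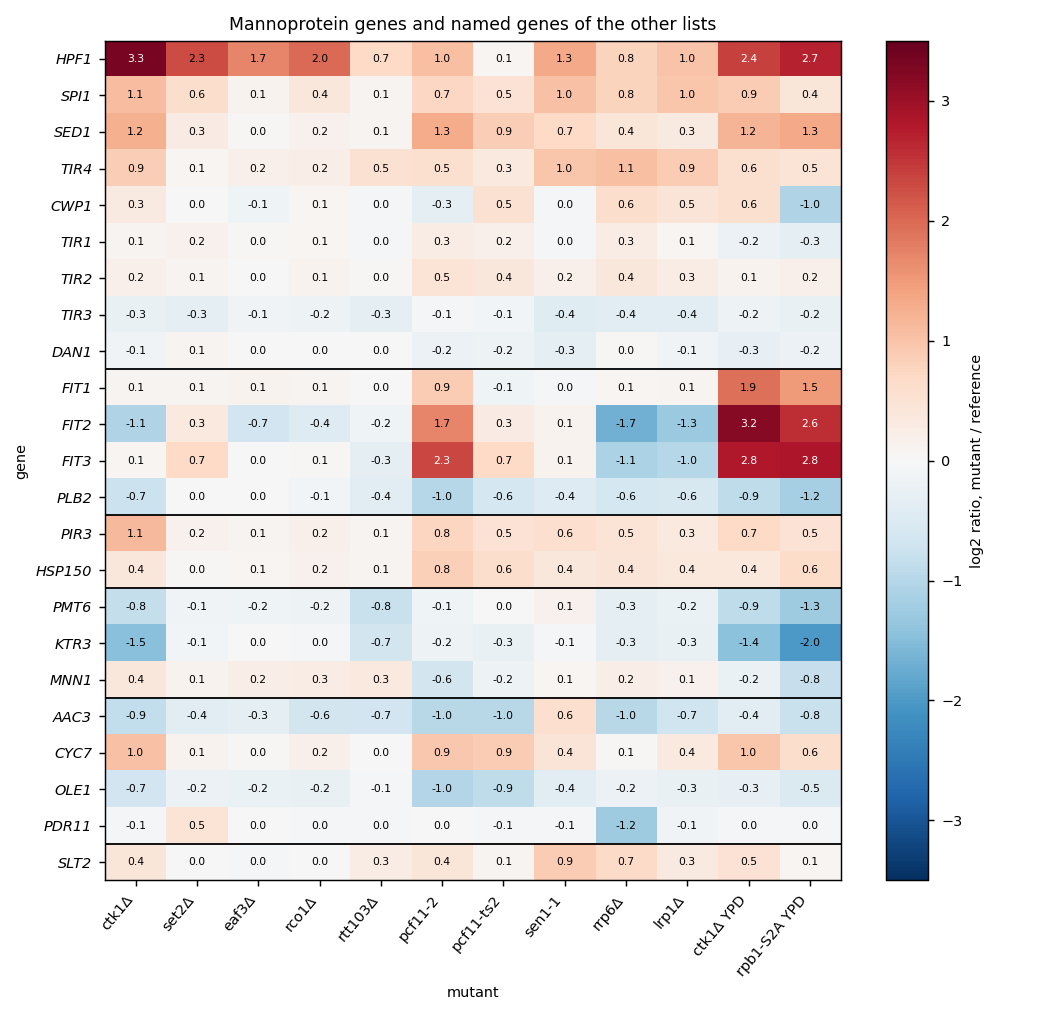
Log2 ratio of mutant over reference (colour and number in each cell) for the 9 mannoprotein genes (top block) and, below, the named genes of the other GPI-anchored proteins (without *YPS1* and *CCW14*), the PIR proteins, mannosylation, hypoxic genes and regulators, in 12 mutants (x axis). *HPF1* is above 0 in every column, whereas *FIT2* is at −1.05 in *ctk1*Δ in SC and at 3.19 in YPD, and *PMT6* and *KTR3* are lowest in *rpb1-S2A*.

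The genes next to the 9 were read for calls of their own, with the order of genes taken from the RefSeq annotation. Of the measured neighbours outside the 9, *CWP2* and *DAN4*, wall protein genes beside *CWP1* and *DAN1*, were called in 0 mutants, with ratios of −0.49 to 0.38 and −0.20 to 0.43. *ZPS1*, the measured neighbour of *HPF1*, had −0.07 to 0.70 and was called in 0. YJR149W, transcribed towards *DAN1*, was called higher in 5 mutants at 0.30 to 1.84 over all 12, and *SHU2*, transcribed towards *SED1*, in 2 at −0.09 to 0.98. YIL012W, beside *TIR3* on the same strand, was called higher in 2 at −0.11 to 0.85, and YER010C, beside *TIR1*, was called lower in 1 at −1.33 to 0.00. These 4 genes were singled out after their values were seen.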

How the data were processed

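The authors deposited scanner intensity values, mean spot signal and local background in both channels of 22 arrays, not normalized. A second deposited table holds a log2 ratio for each spot after normalization and removal of dye bias, and the submitters' processing notes name limma for it (version 2.12.0 for 6 arrays, no version for 16). In 6 of these columns the direction, found from the scanner values, was reference over mutant, and they were turned. How these ratios were centred is not given in the sources used here, and column medians were −0.0130 to 0.0387.

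From the scanner values, background was corrected with normexp (offset 50) and arrays were normalized by loess with control spots at weight 0, in limma 3.58.1 under R 4.3.3. The 12776 gene spots of 15552 gave 6388 probes and 6373 features, of which 5311 had a gene name. The platform annotation supplied symbols and RefSeq's annotation of yeast updated 58 of them. A linear model with 12 profile coefficients and a dye term was fitted by limma with moderated variances (empirical Bayes, 3.7 prior and 9 residual degrees of freedom), and p was adjusted by Benjamini-Hochberg over all features. The fit was run on simulated data with noise drawn independently for each array. That simulation left out the correlation between arrays given below. A spot exceeding background by 2.6 SD was above background, and 65000 or more was saturated. Per list at most 4 genes called in most mutants were named, ties by mean absolute ratio, and for *HPF1*, *SPI1* and *TIR4* the 5 genes with the highest r. *YPS1* and *CCW14*, tied with *FIT1* and *PLB2* at 3 calls, were named in addition. Dye and replicate letter are 1 split, and the dye term is thus the replicate block. Deviations of array a from the mutant mean correlated between mutants at −0.36 to 0.76 (median 0.38, 45 pairs). The members and lists were chosen with earlier results of these data known. Promoter and protein sequences were not analysed here.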

Additional observations from a re-analysis of the deposited data

Results flagged for a closer look

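The ratio of *HPF1* to the reference differed between the 2 media in which *ctk1*Δ was grown. It was 3.33 and 3.30 on the arrays from SC and 2.16 and 2.65 on those from YPD, a difference of −0.91 by the limma fit (adjusted p = 0.00237), lower on both YPD arrays. *HPF1* was chosen on these same ratios, and *ctk1*Δ in SC was its highest profile. The choice favours a drop from that value, so the p describes these arrays only. Without array a from YPD the difference was −0.67, below the fold minimum. The RNA extraction of the mutant and the extraction labelled for the reference differed along with the medium, and their part in the result was not tested. No group had the 4 samples needed to look for single samples that stand apart.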

How the results depend on the processing

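The array number limits precision, since each mutant rests on 1 or 2 arrays. All 9 probes exceeded background on every array, but *TIR3*, *TIR4* and *DAN1* were dim and their ratios depend on the offset. The differences of *HPF1*, *SED1* and *CWP1* between mutants kept direction and call with all 9 other settings. These included the authors' processed ratios and median centring of arrays. They also included dropping the fold minimum and centring each gene over the mutants, which by construction could not remove such a call. Without the dye term (no replicate block) 24 pairs of a gene and a mutant were called higher and 1 lower, as with it, and no call in the 6 comparisons changed. Planned sequence features were not run.

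With an offset of 10, 1 gene was called in *sen1-1* against the *pcf11* alleles and 4 in *ctk1*Δ against *set2*Δ, *eaf3*Δ and *rco1*Δ, and over all features 1728 pairs were called lower in place of 1122. Without a fold minimum, 45 pairs of a gene and a mutant were called higher and 16 lower, and the comparisons of *ctk1*Δ in YPD with SC, *sen1-1* with *pcf11* and *ctk1*Δ with *set2*Δ, *eaf3*Δ and *rco1*Δ called 2, 3 and 5 genes. Over all features 14536 pairs were then called higher and 12800 lower, in place of 2589 and 1122. With each gene centred on its median over the 12 mutants, which takes out by construction what the mutants share, 4 pairs were called higher and 3 lower, 1278 higher over all features, and the *HPF1* ratio turned negative in *pcf11-2* (−0.46), *sen1-1* (−0.20), *rrp6*Δ (−0.73) and *lrp1*Δ (−0.51), and in *rtt103*Δ (−0.82) and *pcf11-ts2* (−1.45), where it was then called lower. Centring leaves differences between mutants as they were.

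Leaving out 1 array at a time, 22 to 26 pairs were called higher and 1 lower. The genes called were 0 to 1 for *ctk1*Δ in YPD against SC (0 without array a from YPD), 1 to 2 for *rpb1-S2A* against *ctk1*Δ in YPD (2 without array a of the latter, with *SPI1* added), and 0 to 1 for *sen1-1* against *pcf11* (1 without array b of *sen1-1*), and 2, 0 and 0 in the other comparisons. *HPF1* was called in 9 or 10 mutants, *SPI1* and *SED1* in 4 to 6 and *TIR4* in 4. Both *HPF1* and *SPI1* lost their call in *rrp6*Δ without its array b (0.74 and 0.76). A comparison of *ctk1*Δ with *eaf3*Δ and *rco1*Δ alone, added after seeing the data, called 3 genes, *HPF1*, *SED1* and *SPI1*.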
